A study of Mus musculus with 6 samples.

Results

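Regions of chromatin that carried 1 histone mark in 1 population of γδ thymocytes and the other mark in the other population are described here. The marks were H3K4me3 and H3K27me3, trimethylation of histone H3 at its lysines 4 and 27, mapped by chromatin immunoprecipitation and sequencing in a Sox13hi and a Sox13lo population. Members were chosen by the presence and absence of peaks in the 4 histone lists: overlapping peaks were merged, and regions were kept if they held only H3K4me3 in Sox13hi and only H3K27me3 in Sox13lo, or only H3K27me3 in Sox13hi and only H3K4me3 in Sox13lo. On chromosomes 1 to 19 this gave 310 of 37017 regions, 167 in the first direction and 143 in the second.

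Both populations came from the thymus of C57BL/6 mice with the genotype TCRbeta KO.Sox13 ECFP KI/+, a TCRβ knockout, in which αβ T cells cannot form, combined with a knock-in of cyan fluorescent protein (CFP) on a single Sox13 allele. CD24+ γδ thymocytes were sorted as CFPhi (Sox13hi) or as CFPlo/- (Sox13lo), so the second population includes cells without detectable reporter, and the split follows the reporter and not the SOX13 protein. Each histone library was made from fewer cells than the SOX13 library, which came from Sox13hi cells alone. There was 1 library for each mark and population. The sources used here give neither the age of the mice nor how many were pooled. An input library is listed in the labels but was not analysed here, so enrichment without an antibody was not examined. The sorted identity was not checked against marker genes, since gene positions on build mm9 were not at hand.

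H3K4me3 is laid down at the start sites of active genes and of genes held ready for activation. H3K27me3 is written by Polycomb repressive complex 2 and marks silenced developmental genes. Many such genes in stem and progenitor cells carry both marks at once, a state called bivalent, and can resolve to either mark as cells take on a fate. SOX13 is an HMG-box transcription factor of early γδ thymocytes and is known for its role in the γδ T cells that make interleukin 17. The series set out to map TCF1 and SOX13 on chromatin and to set these 2 marks beside them, and the exchange of marks between the populations is described here as part of that map.

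A complete exchange of marks was rare in both directions. The 167 regions with H3K4me3 in Sox13hi and H3K27me3 in Sox13lo were 0.451% of all merged regions, and the 143 with H3K27me3 in Sox13hi and H3K4me3 in Sox13lo were 0.386%. These shares describe the rule and its lists and are not a test. By comparison 10902 regions held H3K4me3 alone in both populations, 966 held H3K27me3 alone in both, and 1803 held both marks in both. Far more regions, 21617 or 58.4% of the total, had a histone peak in 1 population and none in the other.

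The share that switched depended on which mark and population were taken as the starting point. Within a direction the 2 shares count the same switching regions over different totals. Of 5563 regions with H3K4me3 alone in Sox13hi and none in Sox13lo, 3% (95% exact binomial interval 2.57 to 3.48%) held H3K27me3 alone in Sox13lo. Of 3528 regions with H3K4me3 alone in Sox13lo and none in Sox13hi, 4.05% (3.43 to 4.76%) held H3K27me3 alone in Sox13hi. Starting from H3K27me3, 1.45% (1.23 to 1.71%) of 9832 regions marked in Sox13hi alone had H3K4me3 in Sox13lo, and 5.62% (4.82 to 6.51%) of 2970 marked in Sox13lo alone had H3K4me3 in Sox13hi. The Sox13hi H3K27me3 list is longer, with 14842 peaks against 7395 in Sox13lo, and list length enters all 4 shares. With 1 library per group no test over samples was possible, and all intervals given cover counting error over regions only.

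Which direction was the more frequent was not stable. The ratio of the first to the second direction was 1.17 with the lists as deposited. It was 1.88, with 171 and 91 regions, when both lists of a mark were limited to the same length by score. It was below 1 when peaks within 1 kb were merged, with 130 and 158 regions, and among regions with no peak of either absent list within 5 kb, with 60 and 70. The order of the 2 counts thus turned with the processing.

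Each peak carries the authors' own score, whose definition the sources used here do not give. It was read only as a percentile within its own list, where 100 is the highest score, and sites were ordered by the lower of their 2 percentiles, so that a site had to rank well for both marks. The first site with H3K4me3 in Sox13hi and H3K27me3 in Sox13lo was chr6:112438951-112440049 (build mm9), with a Sox13hi H3K4me3 score of 53.5, percentile 61.2, and a Sox13lo H3K27me3 score of 57.25, percentile 81.9. The second, chr6:121362651-121363499, had scores of 38.5 and 47.5 and percentiles of 52.3 and 76.5, H3K4me3 in Sox13hi before H3K27me3 in Sox13lo. These were the only members of either direction with both peaks in the upper 50% of their lists. The third, chr1:75384501-75385549, had percentiles of 49.5 and 63.1, and the fourth, chr4:115329801-115330449, 47.8 and 64.7. The fifth, chr13:31893151-31894149, reached 47.5 and 77.4. The other 5 were chr14:80168151-80169049, chr7:3264651-3265349, chr17:28486801-28487449, chr15:75864351-75865049 and chr18:42554851-42555449. For these the lower of the 2 percentiles lay between 44.9 and 47.2. Of these 10 sites, the one on chromosome 15 was the only one that held a SOX13 peak.

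The highest-ranking sites of the second direction stood lower. The first was chr8:42218751-42219399, with a Sox13hi H3K27me3 score of 51.75, percentile 88.3, and a Sox13lo H3K4me3 score of 37.75, percentile 40.1. The second, chr1:12980201-12981399, had scores of 63.0 and 34.5 and percentiles of 91.4 and 38.0, H3K27me3 in Sox13hi before H3K4me3 in Sox13lo, and held 2 separate H3K27me3 peaks joined by 1 H3K4me3 peak. At both sites the H3K27me3 peak of Sox13hi stood far higher in its list than the H3K4me3 peak of Sox13lo did in its own. The third, chr6:124859901-124860499, had percentiles of 78.7 and 37.2, the fourth, chr4:151532551-151533199, 86.2 and 36.4, and the fifth, chr10:68186251-68187049, 70.0 and 35.3. The other 5 were chr18:38157951-38158499, chr9:54829001-54829999, chr15:36069851-36070399, chr11:5971601-5972049 and chr8:4216751-4217349. For these the lower of the 2 percentiles lay between 33.2 and 35.0. None of these 10 sites held a SOX13 peak. Which genes lie there was not analysed here.

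Across all members the H3K4me3 peak usually had the lower rank of the pair. In the first direction the median percentile of the Sox13hi H3K4me3 peaks was 27.6 (95% order-statistic interval 25.7 to 30.0), and they ran from 0.687 to 61.2. In the second the median of the Sox13lo H3K4me3 peaks was 14.5 (12.1 to 17.7), and they ran from 0.0541 to 49.2. Of the 167 and 143 regions, 165 and all 143 had an H3K4me3 peak in the lower 50% of its list, and 18 and 50 had one in the lowest 10%. Such low ranks were not particular to members. Among regions with H3K4me3 in 1 population and nothing in the other, 0.89% in Sox13hi and 0.473% in Sox13lo ranked in the upper 50%. The H3K27me3 peaks ranged over nearly the whole of their lists, from 1.58 to 96.5 in the first direction and from 3.65 to 91.8 in the second, with 72 of 167 (43.1%) and 56 of 143 (39.2%) in the lower 50%. Their median percentile was 54.8 (49.7 to 58.6) for Sox13lo peaks in the first direction and 60.1 (54.0 to 65.2) for Sox13hi peaks in the second. The H3K27me3 percentile was the higher one in 142 of 167 regions (85.0%) and in 133 of 143 (93.0%). Since the lists chose the members, these values are a description.

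Members had higher median ranks than regions with nothing in the other population, though for H3K4me3 in the second direction the gap was small. A member had to overlap a peak of another list, so this comparison is a description and not a test. The median H3K4me3 percentile of 27.6 in the first direction lay above the 15.7 (14.8 to 16.6) of Sox13hi H3K4me3 regions with no histone peak at all in Sox13lo. The 14.5 of the second direction was close to the 12.6 (12.1 to 12.6) of Sox13lo H3K4me3 regions with nothing in Sox13hi. For H3K27me3 the gap was wide in both directions. Switching regions of the first direction had a median of 54.8, against 26.9 (26.1 to 28.4) for regions with H3K27me3 in Sox13lo and nothing in Sox13hi. Those of the second had 60.1, against 37.1 (37.1 to 38.3) for regions with H3K27me3 in Sox13hi and nothing in Sox13lo. All regions with an H3K27me3 peak stood at 50.4 in Sox13lo and 49.7 in Sox13hi, the first near and the second below the median of switching regions. Width moved with these ranks, since the median H3K4me3 peak was 450 bp wide in the first direction and 350 bp in the second, against 350 and 300 bp where the other population had nothing. The median H3K27me3 peak was 300 bp wide in both directions and 250 bp where the other population had nothing. The part of width in these ranks was not tested.

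**Figure D1:**
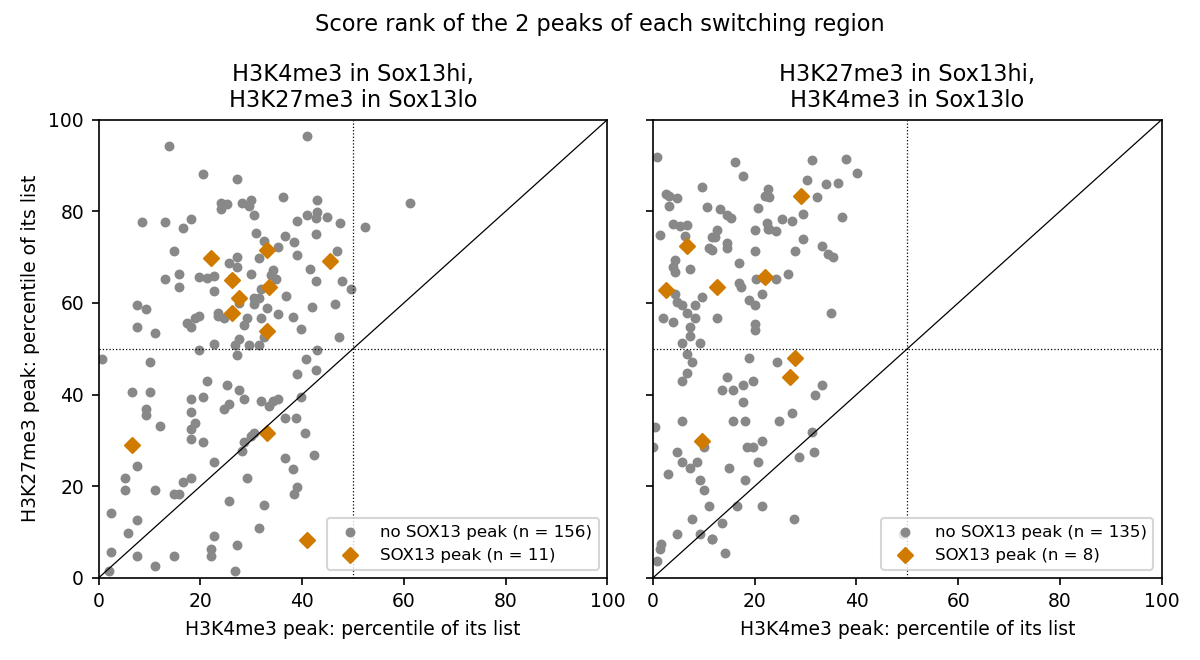
Each point is 1 switching region, placed by the percentile of its H3K4me3 peak (horizontal) and of its H3K27me3 peak (vertical) within their own lists, where 100 is the highest score, for the 167 regions of the first direction (left) and the 143 of the second (right). Diamonds mark the 11 and 8 regions with a SOX13 peak, dotted lines the middle of each list and the diagonal equal percentiles; nearly all points lie left of the middle line for H3K4me3 and most lie above the diagonal.

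Switching regions were short. The median width was 550 bp (500 to 550) in the first direction and 450 bp (400 to 450) in the second, with ranges of 250 to 1450 bp and 150 to 1350 bp. Regions of H3K4me3 alone in both populations had a median width of 1100 bp and regions with both marks in both 1300 bp. Regions with H3K27me3 alone in both had 500 bp, between the 2 directions. Where the other population had nothing, regions with H3K4me3 had 350 bp in Sox13hi and 300 bp in Sox13lo. Those with H3K27me3 had 250 bp in either population. The H3K4me3 extent had a median of 450 bp in the first and 350 bp in the second direction, where all peaks of either H3K4me3 list had a median of 800 bp. The H3K27me3 extent had a median of 300 bp in each direction, like the 350 bp of the whole Sox13lo list and the 300 bp of the whole Sox13hi list. H3K4me3 was the wider mark in 124 of 167 regions and in 84 of 143.

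The few wide members were of different kinds. Regions over 1 kb numbered 3 in each direction, and those not named above were picked after their values were seen. In the first direction chr7:31418851-31420299 was the widest, with H3K27me3 in Sox13lo at percentile 94.3 and H3K4me3 in Sox13hi at 13.9. In the second direction chr7:52419151-52420249 had H3K27me3 in Sox13hi at 86.9 and H3K4me3 in Sox13lo at 30.3. The widest of that direction, chr19:4332751-4334099, was the reverse case, with the highest H3K4me3 percentile of that direction, 49.2 in Sox13lo, over an H3K27me3 peak of Sox13hi at 9.59. At that site the marks shared 100 bp.

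The marks of a member touch by construction, because a region of exactly 2 lists can form only where their peaks overlap, so the measured quantity is how far they covered each other. The bases under both marks had a median of 250 bp in the first direction and 200 bp in the second, with ranges of 50 to 600 and 50 to 550 bp. In 98 of 167 regions (58.7%, exact interval 50.8 to 66.2%) and 80 of 143 (55.9%, 47.4 to 64.2%) the shorter mark lay wholly on the longer. H3K27me3 in Sox13lo lay inside H3K4me3 of Sox13hi in 79 regions of the first direction, and the opposite nesting was seen in 18. For the second direction, H3K27me3 of Sox13hi lay inside H3K4me3 of Sox13lo in 46 and the opposite held in 34. Nesting was read from the first to the last base of a mark, gaps between its peaks included. A nested mark was therefore not always wholly covered. Staggered pairs numbered 69 and 61. The centres of the marks lay a median of 100 bp apart in each direction, less than the median extent of either mark.

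Members just inside the rule shared 50 bp, the smallest step of the grid, as 8 regions did in each direction. Just outside it, 5 regions with H3K4me3 in Sox13hi alone bordered a region with H3K27me3 in Sox13lo alone with no base between them, and 6 did so in the second direction. Within 100 bases there were 16 and 24 such neighbours that the rule leaves out.

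**Figure D2:**
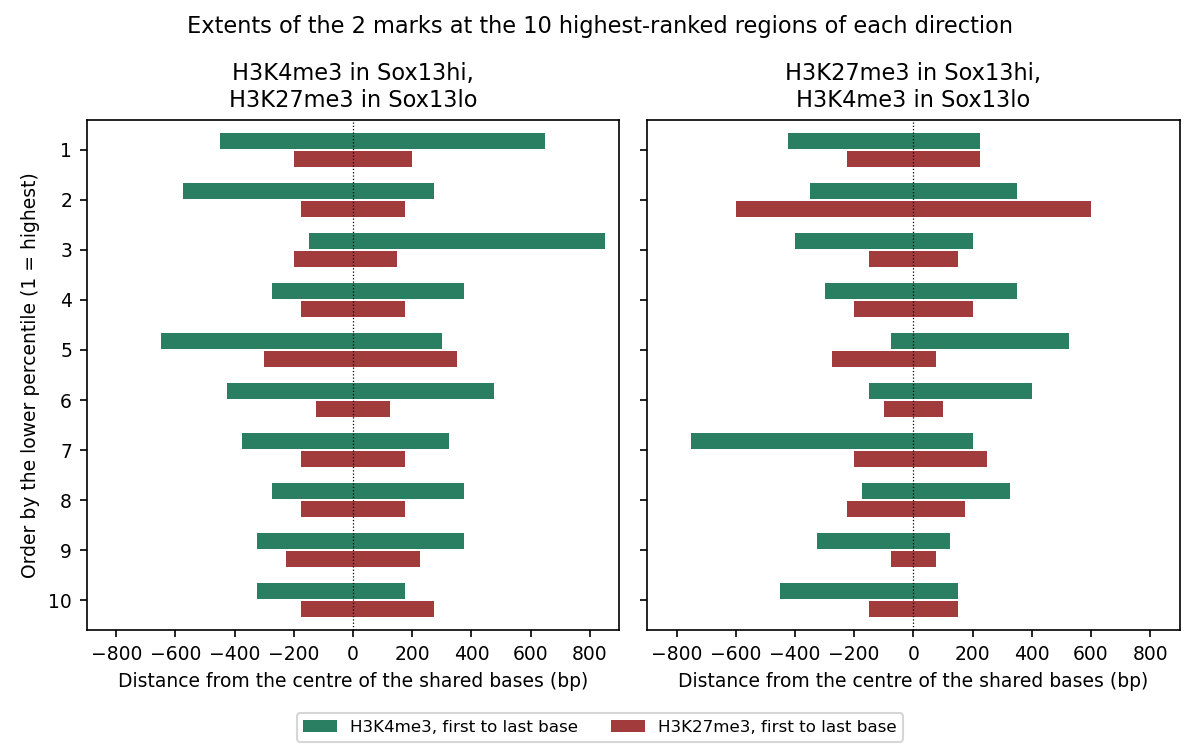
Bars show the stretch from the first to the last base of H3K4me3 (green) and H3K27me3 (red) at the 10 highest-ranked regions of the first direction (left) and of the second (right), in bp from the centre of the bases under both marks. H3K4me3 extends beyond H3K27me3 on at least 1 side at all sites but the second of the right panel, where it lies inside a 1200 bp stretch of H3K27me3.

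Many members had a peak of an absent list close by. In the first direction the absent Sox13hi H3K27me3 list had a peak within 5 kb of 97 of 167 regions (58.1%, 50.2 to 65.7%) and the absent Sox13lo H3K4me3 list within 5 kb of 51 (30.5%, 23.7 to 38.1%). Among regions of the second direction the absent Sox13lo H3K27me3 list came within 5 kb of 52 of 143 (36.4%, 28.5 to 44.8%) and the absent Sox13hi H3K4me3 list of 54 (37.8%, 29.8 to 46.2%). Within 500 bp the counts were 40 and 16 in the first direction and 17 and 19 in the second, H3K27me3 before H3K4me3. The Sox13hi H3K27me3 list is the longer one, and the part of list length in these counts was not tested. Such shares at these distances were not computed for other regions, so the counts do not set members apart from them.

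Isolated exchanges, with neither absent list within 5 kb, numbered 60 of 167 (35.9%, 28.7 to 43.7%) and 70 of 143 (49.0%, 40.5 to 57.4%). Of the 10 named sites of the first direction 4 were isolated, on chromosome 6 at 121362651, chromosome 1, chromosome 4 and chromosome 15. Of the second direction's named sites 4 were, the first site on chromosome 8 and those on chromosomes 6, 18 and 15. The first site of the second direction was the farthest from its absent lists among these 8, with 105250 bases to the nearest Sox13hi H3K4me3 peak and 709600 to the nearest Sox13lo H3K27me3 peak. Isolated regions had a median H3K27me3 percentile of 48.4 in the first and 46.0 in the second direction. Regions with both absent lists within 5 kb stood at 59.7 and 69.4.

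**Figure D3:**
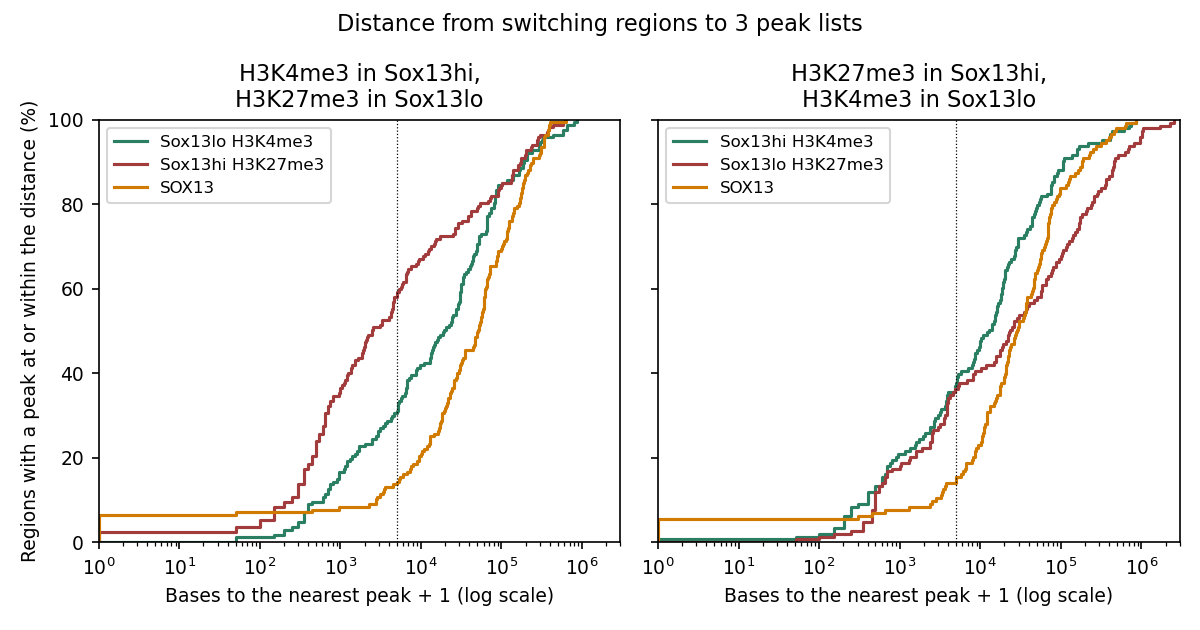
Cumulative share of switching regions (vertical, %) against the distance to the nearest peak of the 2 lists that are absent from the region and of the SOX13 list (horizontal, bases plus 1, log scale, with overlapping peaks at the left edge), for the first direction (left) and the second (right). The dotted line marks 5 kb, where the absent Sox13hi H3K27me3 list has reached 58.1% of the first direction and the absent Sox13lo H3K27me3 list 36.4% of the second.

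Regions with both marks were more frequent beside members than beside regions with H3K4me3 in 1 population. The rule used the same lists and gave each member an H3K27me3 peak, which those regions lack. The comparison is therefore a description and not a test. Another region with both marks in at least 1 population lay within 5 kb of 43 of 167 regions in the first direction (25.7%, 19.3 to 33.1%) and of 32 of 143 in the second (22.4%, 15.8 to 30.1%). Among regions with H3K4me3 in Sox13hi and nothing in Sox13lo the share was 4.41%, which is 21.3 percentage points below the first direction (interval of the difference 14.9 to 28.7). Among regions with H3K4me3 in Sox13lo and nothing in Sox13hi it was 4.34%, 18 points below the second direction (11.5 to 25.8). Set against H3K27me3 in 1 population the differences were smaller. Regions with H3K27me3 in Sox13lo and nothing in Sox13hi had 28.3%, a difference of -2.51 points for the first direction (-9.17 to 5.01). Regions with H3K27me3 in Sox13hi and nothing in Sox13lo had 16.4%, a difference of 6.00 points for the second (-0.585 to 13.8). Both of these intervals include 0, and the second lies almost wholly above it. Regions with H3K27me3 in both populations had 49.4%, and both directions stood below them, with differences of -23.6 points (-30.8 to -15.6) for the first and -27 points (-34.3 to -18.6) for the second.

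Further H3K27me3 peaks were also frequent over a wider distance. Here too the lists counted are those that chose the members, and regions with H3K4me3 alone lack H3K27me3 by definition. These comparisons, and those of H3K4me3 neighbours below, are a description and not a test. Another Sox13hi H3K27me3 peak was centred within 25 kb of 121 of 167 regions (72.5%) in the first direction, and of 29.7% of regions with H3K4me3 in Sox13hi and nothing in Sox13lo, a difference of 42.7 points (35.2 to 49.5). In the second direction the share was 88 of 143 (61.5%), and 29.0% for regions with H3K4me3 in Sox13lo and nothing in Sox13hi, a difference of 32.6 points (23.9 to 40.7). It also exceeded the 46.4% of regions with H3K27me3 in Sox13hi and nothing in Sox13lo by 15.2 points (6.62 to 23.2). In the first direction the corresponding comparison, with the 66.0% of regions marked by H3K27me3 in Sox13lo alone, gave 6.42 points (-1.22 to 13.3), and 0 lay inside that interval. The 2 directions differed from each other by 10.9 points, and that interval reached 0 (-0.0103 to 21.7). Regions with H3K27me3 in both populations had 87.2%, above both directions. The differences were -14.7 points (-22.4 to -7.71) for the first and -25.6 points (-34.4 to -17.3) for the second. Regions with both marks in both populations had 70.5%. The first direction differed from them by 1.91 points (-5.82 to 8.87) and the second by -9.01 points (-17.8 to -0.716).

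Further H3K4me3 peaks lay around most members of both directions. Another Sox13hi H3K4me3 peak was centred within 25 kb of 96 of the 143 regions of the second direction (67.1%). This exceeded the 53.6% of regions with H3K4me3 in Sox13lo and nothing in Sox13hi by 13.5 points (4.97 to 21.3), and the 49.8% of regions with H3K27me3 in Sox13hi and nothing in Sox13lo by 17.3 points (8.92 to 25). Another Sox13hi peak of either mark was thus more frequent around the second direction than around both of these classes. For the first direction the share was 97 of 167 (58.1%), 10.6 points (2.64 to 18.3) above regions with H3K4me3 in Sox13hi and nothing in Sox13lo. Its difference from regions with H3K27me3 in Sox13lo and nothing in Sox13hi was -4.88 points, with 0 inside the interval (-13 to 2.91). Regions with H3K27me3 in both populations had 79% for Sox13hi H3K4me3, and both directions stood below them. The differences were -20.9 points (-29.2 to -12.9) for the first and -11.9 points (-20.6 to -3.77) for the second. From the 59.4% of regions with both marks in both they were -1.32 (-9.51 to 6.61) and 7.73 points (-0.918 to 15.7). From the 56.5% of regions with H3K4me3 in both they were 1.53 (-6.39 to 9.17) and 10.6 points (2.19 to 18.3). The 2 directions differed by -9.05 points, with 0 inside the interval (-20 to 2.22). For Sox13lo H3K4me3 peaks they differed by -11.6 points (-22.7 to -0.178).

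Regions of unchanged H3K4me3, marked in both populations, lay near few members and near few regions of the other classes with H3K27me3. They lay within 5 kb of 9 of 167 regions in the first direction (5.39%, 2.49 to 9.98%), which was 5.62 points below the 11% of regions with H3K4me3 in Sox13hi and nothing in Sox13lo (-8.64 to -0.951). In the second direction they lay near 16 of 143 (11.2%, 6.53 to 17.5%), and the difference from the 16.9% of regions with H3K4me3 in Sox13lo and nothing in Sox13hi was -5.71 points, and 0 lay inside its interval (-10.5 to 0.757). It exceeded the 6.12% of regions with H3K27me3 in Sox13hi and nothing in Sox13lo by 5.07 points (0.386 to 11.4). The difference between the directions, -5.80 points, also had an interval that includes 0 (-12.8 to 0.742). Regions with H3K27me3 in Sox13lo and nothing in Sox13hi had 6.03%, a difference of -0.64 points for the first direction (-3.69 to 4.03). Regions with H3K27me3 in both populations had 6.52% and those with both marks in both had 7.21%. For each direction the differences from these last classes had intervals that include 0.

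SOX13 sat on few members, 11 of 167 in the first direction (6.59%, 3.33 to 11.5%) and 8 of 143 in the second (5.59%, 2.45 to 10.7%). Of all merged regions, 6.20% held a SOX13 peak. The difference between the directions was 0.992 percentage points with an interval from -5.08 to 6.81, which leaves a difference of several points either way undetectable with these numbers. SOX13 was mapped in Sox13hi cells, in which the first direction carries H3K4me3 and the second H3K27me3. SOX13 in Sox13lo cells was not analysed here.

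Compared with regions of 1 mark, members held SOX13 more often than those with H3K27me3 in 1 population, while their differences from those with H3K4me3 in 1 population had intervals on both sides of 0. The first direction differed by -0.900 points (-4.24 to 4.04) from the 7.49% of regions with H3K4me3 in Sox13hi and nothing in Sox13lo, and by 5.23 points (1.94 to 10.1) from the 1.36% of regions with H3K27me3 in Sox13lo and nothing in Sox13hi. The second differed by -1.97 points (-5.25 to 3.24) from the 7.56% of regions with H3K4me3 in Sox13lo and nothing in Sox13hi, and by 4.49 points (1.33 to 9.63) from the 1.10% of regions with H3K27me3 in Sox13hi and nothing in Sox13lo. Regions with H3K27me3 in both populations held SOX13 in 2.90% (1.93 to 4.16%), from which the first direction differed by 3.69 points (0.198 to 8.68) and the second by 2.70 points, with 0 inside its interval (-0.697 to 7.92). Regions with both marks in both populations held SOX13 in 13.1%, and the members stood below them by 6.50 points (difference -10.1 to -1.38) in the first and 7.49 points (-11 to -2.14) in the second direction.

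Width differs between these classes, and the SOX13 share had no common relation to it. Regions with H3K4me3 in both populations held SOX13 in 19.3% up to 400 bp and in 9.12% over 600 bp, whereas those with H3K4me3 in Sox13hi and nothing in Sox13lo held it in 5.96% and 13.7%. H3K27me3 regions of 1 population had a median width of 250 bp. Among regions over 400 and up to 600 bp wide, SOX13 was on 5 of 82 members of the first direction (6.10%, 2.01 to 13.7%) and on 4 of 255 regions with H3K27me3 in Sox13lo and nothing in Sox13hi (1.57%, 0.429 to 3.97%), with overlapping intervals. Regions of that width with H3K4me3 in Sox13hi and nothing in Sox13lo held it in 12.5% (10.5 to 14.6%). In the same class it was on 6 of 57 members of the second direction (10.5%, 3.96 to 21.5%) and on 5 of 636 regions with H3K27me3 in Sox13hi and nothing in Sox13lo (0.786%, 0.256 to 1.83%), with separate intervals. The other widths, which hold most members of the second direction, showed no such separation. Up to 400 bp SOX13 was on 2 of 63 members (3.17%, 0.387 to 11%) and on 1.12% (0.909 to 1.36%) of regions with H3K27me3 in Sox13hi and nothing in Sox13lo, and over 600 bp on 0 of 23 members and 2 of 95 such regions (2.11%, 0.256 to 7.40%). In the first direction it was on 3 of 36 members up to 400 bp (8.33%, 1.75 to 22.5%). Regions with H3K27me3 in Sox13lo and nothing in Sox13hi had 1.25% there (0.849 to 1.77%). Over 600 bp the shares were 6.12% (1.28 to 16.9%) and 4.76% (0.993 to 13.3%). The intervals of the first direction thus overlapped at every width, though only just up to 400 bp. Regions with both marks in both populations were nearly all wider than 600 bp, and in that class 3 of 49 members of the first direction (6.12%, 1.28 to 16.9%) and 0 of 23 of the second (0%, up to 14.8%) held SOX13, against 13.1% (11.6 to 14.8%). The part of width in the differences from regions with both marks was not tested beyond these values.

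**Figure D4:**
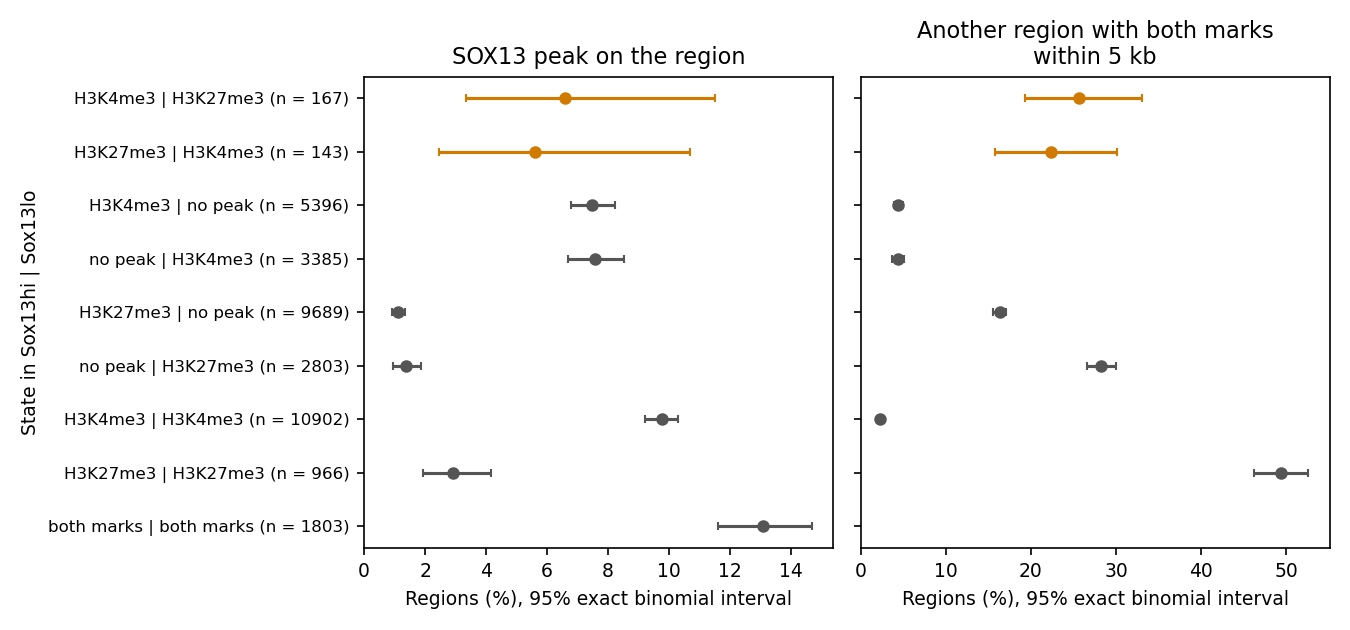
Share of regions with a SOX13 peak on them (left) and with another region holding both marks within 5 kb (right), in %, for the 2 switching directions (orange, top) and the other region classes (grey), each named by its state in Sox13hi and then Sox13lo; points are shares and bars 95% exact binomial intervals, and regions with both marks in both populations are left out on the right. Switching regions stand at 6.59% and 5.59% for SOX13, above the 1.10% and 1.36% of regions with H3K27me3 in 1 population, and at 25.7% and 22.4% for neighbours with both marks, above the 4.41% and 4.34% of regions with H3K4me3 in 1 population.

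The SOX13 peaks on members mostly stood in the upper 50% of their list and lay on both marks. In the first direction their median percentile in the SOX13 list was 76.1, with 9 of 11 in the upper 50% and scores from 5.5 to 13.0. For the second direction it was 74.4, with 6 of 8 in the upper 50% and scores from 5.5 to 18.5. Every one of the 19 overlapped the H3K4me3 part of its region. The H3K27me3 part was overlapped by 8 of 11 in the first direction and by 8 of 8 in the second. H3K4me3 took up most of a typical member, with median extents of 450 and 350 bp in regions of median width 550 and 450 bp. The median H3K27me3 extent was 300 bp in each direction. Whether SOX13 favoured either mark within members was not tested. SOX13 was found at isolated exchanges in 8 of its 11 regions in the first direction and 5 of its 8 in the second, which made 13.3% (5.94 to 24.6%) of the 60 isolated regions of the first and 7.14% (2.36 to 15.9%) of the 70 of the second. SOX13 peaks near but not on members were few, since widening the distance to 1 kb raised the counts only to 14 and 11.

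The SOX13-bearing members with the highest ranks of both marks were, in the first direction, chr15:75864351-75865049, chr8:128662601-128663299, chr12:28026501-28026899, chr5:144119051-144119599 and chr13:83866801-83867299. At the chromosome 15 site a 300 bp SOX13 peak of score 7.75 lay wholly within both marks. At the chromosome 8 site a SOX13 peak of score 7.25 met only the last 50 bp of H3K4me3. The chromosome 5 site had the highest SOX13 score of these, 11.75, percentile 84.4, for a peak that lay over 400 bp of H3K4me3 of Sox13hi and 300 bp of H3K27me3 of Sox13lo. Those of the second direction were chr1:154921401-154921849, chr8:27284951-27285449, chr19:11874551-11875049, chr1:182720651-182721099 and chr3:146234401-146234849. The chromosome 8 site held the highest-ranking SOX13 peak of any member, 550 bp wide with a score of 18.5, percentile 95, and its H3K27me3 and H3K4me3 peaks stood at percentiles 48.0 in Sox13hi and 27.9 in Sox13lo.

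Members were scattered over the genome, with few clusters. Every autosome held both directions, from 1 to 17 regions each, and the 2 directions together made up between 0.430% of the regions of chromosome 14 and 1.02% of those of chromosome 6. The nearest member of the same direction was a median of 4562900 bases away in the first direction and 4477000 in the second. Members of the same direction within 5 kb of each other made up 2 pairs in the first direction and 1 in the second, named here after their values were seen. On chromosome 11, chr11:115179451-115180399 and chr11:115181151-115181599 were 750 bases apart, and the first of them held the highest-ranking H3K27me3 peak of all members of its direction, with a Sox13lo score of 122.5, percentile 96.5, beside a Sox13hi H3K4me3 percentile of 40.9. Another region of that direction followed 6550 bases on. On chromosome 1, chr1:176431901-176432499 and chr1:176433301-176433749 were 800 bases apart. The pair of the second direction, chr3:25431401-25432149 and chr3:25433751-25434099, was 1600 bases apart, with H3K27me3 percentiles of 74.9 and 24.0 in Sox13hi and H3K4me3 percentiles of 1.42 and 14.9 in Sox13lo.

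Opposite directions met within 5 kb at 1 place, also chosen after its values were seen. There chr4:54957851-54958349, with H3K4me3 in Sox13hi at percentile 30.5 and H3K27me3 in Sox13lo at 59.7, lay 2450 bases from chr4:54960801-54961199, with H3K27me3 in Sox13hi at 5.38 and H3K4me3 in Sox13lo at 14.1. Both absent lists had a peak within 5 kb of each of these regions by construction, since the lists absent from each are those that form the other.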

How the data were processed

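Chromatin immunoprecipitation followed by sequencing gave 5 deposited peak lists, 1 per library, on build mm9 per the submitters' processing notes. Each peak has a position and the authors' own score, a positive number near a multiple of 0.25. How the score is defined, and which aligner, peak caller, threshold and control were used, is not given in the sources used here, and the depth is unknown. Scores were therefore turned into percentiles within their own list (100 is the highest score) and never compared between lists. Printed starts count from 1, and printed ends are the deposited ones. All starts lay on a 50 bp grid and all ends 1 bp short of it, so widths include the last base. Histone peaks on chromosomes 1 to 19 that shared at least 1 bp were merged into regions. The members, the lists and the comparisons were chosen with earlier results of these data known.

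There was 1 library per group, so no test over samples was possible and no p-value was computed. Shares carry 95% exact (Clopper-Pearson) binomial intervals, differences of shares a Newcombe-type interval built from them, and medians an order-statistic interval of at least 95%. All of these take regions as independent, which neighbours are not, and hold counting error alone. The rule for naming sites took, in each direction, the 10 regions with the highest lower percentile of their 2 marks, and the 5 highest with a SOX13 peak. Alternatives were merging within 1 kb, equal list lengths, the top 50% of each list, an overlap of 50% of the shorter peak, adding chromosome X, a 5 kb distance to the absent lists, SOX13 within 1 kb and the top 50% of SOX13 peaks. Genes and sequences were not analysed here, because the tables at hand are on another build. Python 3.11.15, NumPy 2.4.6, pandas 2.3.3, SciPy 1.17.1 and matplotlib 3.10.9 were used. The overlap code was tested on simulated data and against bedtools 2.31.1.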

Additional observations from a re-analysis of the deposited data

How the results depend on the processing

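Of 84 values recomputed under 8 alternatives, 63 stayed within the main interval, or within 1.5 times for counts. Merging within 1 kb lowered the median H3K27me3 percentile to 41.3 in the first and 53.7 in the second direction, widened the regions to 625 and 600 bp and lowered the median covered share of the shorter mark to 70.7% and 50%, as marks then need not touch. Equal list lengths gave 91 regions in the second direction, 87 of them at members, with a median H3K27me3 percentile of 72.5. The top 50% of each list gave 50 and 19 regions, 1100 and 1150 bp wide, with median percentiles of 56.9 and 54.0 for H3K4me3 and 71.2 and 83.1 for H3K27me3. Only 2 of those 50 and 0 of those 19 lay on a member, since dropping lower-scoring peaks can also turn a region with another state into a switching one. Keeping regions with no peak of either absent list within 5 kb left 60 and 70, with median H3K27me3 percentiles of 48.4 and 46.0, and a SOX13 share of 13.3% (5.94 to 24.6%) in the first direction. The difference of SOX13 shares between directions kept an interval that includes 0 in all 8 alternatives, though its sign turned in the top 50%, at -2.53 points (-25.9 to 12). The cause of the changes was not tested beyond this. With 1 library per group and unknown depth, a missing peak may lie below a threshold. No paired analysis was possible because there were no replicates, and none could be left out.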
